A study of Mus musculus with 6 samples.

Results

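Heat shock chaperones were examined in RNA sequencing libraries of mouse bone marrow cells sorted as LT-HSCs, the long-term stem cells of the blood. The members are 10 genes chosen by symbol, of 21878 listed: the cytosolic HSP70 genes Hspa1a, Hspa1b and Hspa8, the HSP40 gene Dnajb1, the HSP110 genes Hsph1 and Hspa4l, the HSP90 genes Hsp90aa1 and Hsp90ab1, and the mitochondrial chaperonin genes Hspd1 and Hspe1. All 10 were found in every library and all 10 passed the filter on low values, which kept 10620 genes. The mice were wild type and kept under specific pathogen-free conditions. Of the 6 libraries, 3 came from mice on a control diet (CD) and 3 from mice fed for 3 months without serine and glycine (SGFD). Strain, age, sex and whether a library stands for 1 mouse or a pool are not given in the sources used here, so p-values cover only how far these samples spread, which may be technical. The sort took lineage-negative cells positive for Kit and Sca1 and negative for CD34 and CD135.

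Heat shock proteins fold new proteins and rescue damaged ones. HSP70 grips exposed hydrophobic stretches in a cycle driven by ATP, HSP40 proteins hand it clients and start ATP hydrolysis, HSP110 proteins release the ADP, and HSP90 takes over clients such as kinases and steroid receptors. Some of these genes are read at all times and others mainly when heat shock factor 1 (HSF1) binds repeats of nGAAn, the heat shock elements, in their promoters. Blood stem cells are known to make protein slowly and to be sensitive to misfolded protein.

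The values are taken as FPKM, fragments per kilobase scaled for depth, so levels of different genes can be compared per length. Within each gene and library the deposited values came out as whole numbers of fragments (to within 0.02) for 15509 of the 15509 genes above 0, and gave between 18684130 and 19846935 fragments per library, each gene's count being fixed only up to a whole factor. Between 13781 and 14106 genes per library were above 0. Chi-square comparisons of the fragments gave 2.81 to 3.78 per gene for pairs of CD libraries and 4.92 to 12.7 for pairs of SGFD libraries, above the 1 that counting alone gives, so none appeared to be deposited more than once. The pair SGFD replicates 2 and 3 gave the highest value. Of the 12 markers fixed for LT-HSCs, all 12 were detected and 9 of 11 tested fell with SGFD, while mRNA of antigens the sort excludes was abundant under both diets. Cd34 was at 471 ± 15.4 (SD, n = 3) in CD and 429 ± 8.58 FPKM in SGFD libraries, and Flt3, which encodes CD135, at 114 ± 1.19 and 90.5 ± 3.72 FPKM.

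Hspa1a and Hspa1b, the stress-inducible HSP70 genes, rose several-fold with SGFD, and these were by far the largest changes among the 10 chaperones. Dnajb1, Hspa8, Hsp90ab1, Hspd1 and Hspe1 rose by 10.4% to 23.9%, of which all but Dnajb1 turned below 0 after quantile normalization, Hsph1 and Hspa4l fell by 35.5% and 37.1%, and Hsp90aa1 did not pass the test. The FPKM of all genes also summed to more with SGFD, 464222 to 485048 per library against 427769 to 433592 with CD. A small rise in FPKM is therefore not an equal rise in share. All 10 members together held 1.08 ± 0.01% of that sum in CD and 1.11 ± 0.02% in SGFD libraries (SD, n = 3), with overlap. With limma, 7 of the 10 were higher and 2 lower at an adjusted p under 0.05, where 17.7% of all tested genes were higher (1875) and 41.8% lower (4438). The 3 SGFD values lay above all CD values for 7 members and below them for 2, against 19.6% and 45.5% of tested genes. The median log2 fold change on FPKM + 1 was 0.20 over the members and -0.13 over all tested genes, so that relative to this median Hspa1a changed by 2.40 and Hsph1 by -0.49. With median-ratio scaling of the libraries the median of all genes was 0.01, 53.8% of the changed genes were higher in place of 29.7%, and the members still counted 7 higher and 2 lower. After quantile normalization 47.0% of changed genes were higher, and of the members 3 (Hspa1a, Hspa1b and Dnajb1) were higher and 5 lower.

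**Figure D1:**
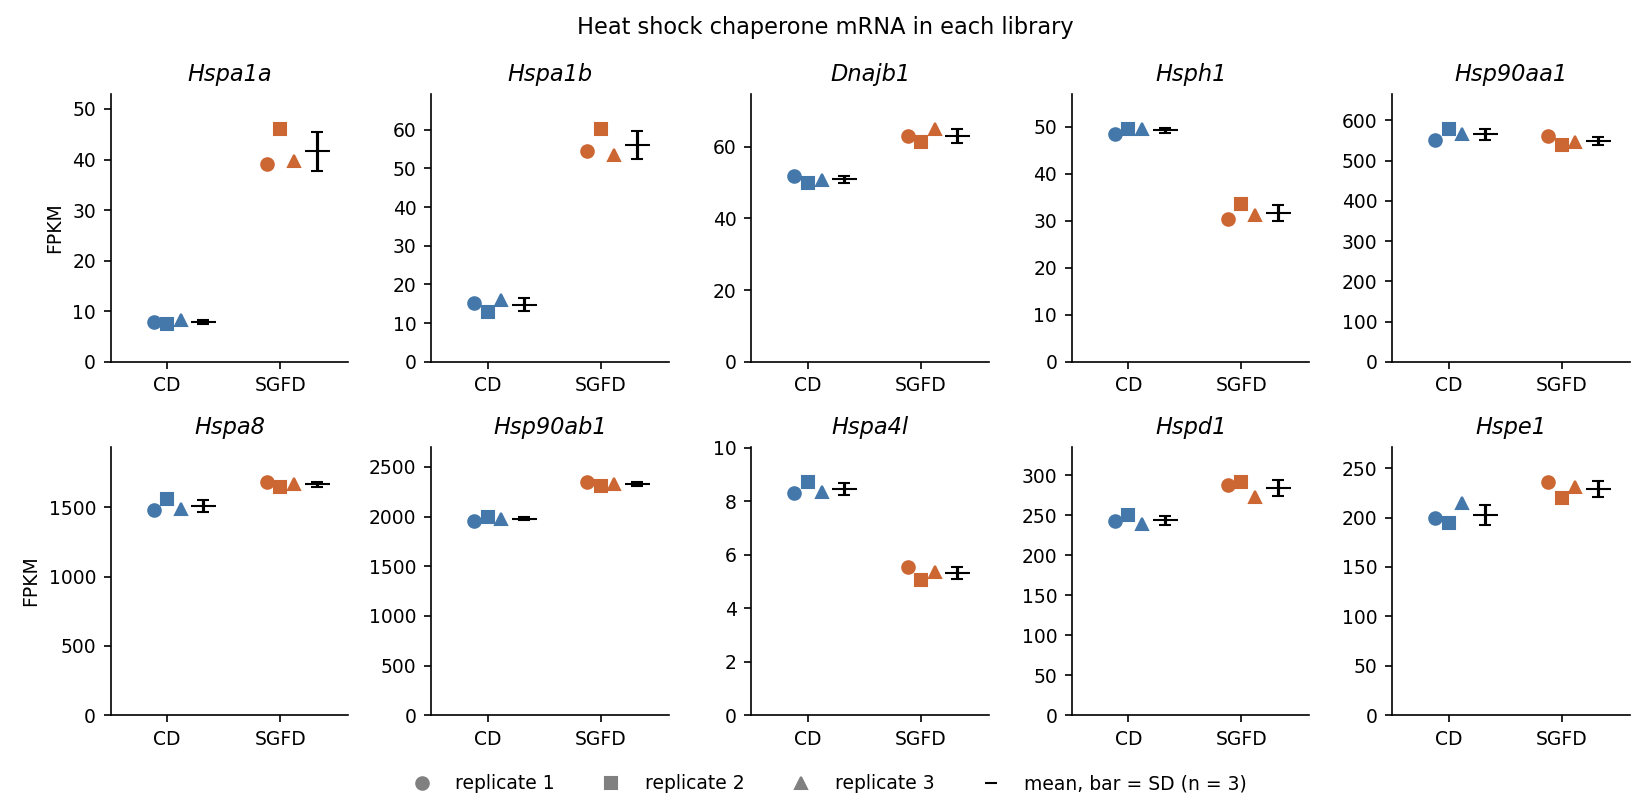
FPKM of the 10 chaperone genes in each library (y axis from 0, own scale per gene), with CD in blue, SGFD in orange, a marker shape per replicate number and the mean ± SD (n = 3) in black. The SGFD points of Hspa1a and Hspa1b lie far above the CD points, those of Hsph1 and Hspa4l lie below, and those of Hsp90aa1 overlap the CD points.

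Hspa1a and Hspa1b are intronless neighbours on chromosome 17 of the mouse genome GRCm38, at 34969359 to 34972156 and 34956429 to 34959238, 10120 bases apart. Both encode the inducible cytosolic HSP70 that is made in bulk after heat or proteotoxic stress. The promoters are shown because these genes changed most and lie in a duplicated stretch. Each run gives the 250 bases before the RefSeq start (GRCm38.p6), read on the minus strand, at chr17:34972157-34972406 for Hspa1a and chr17:34959239-34959488 for Hspa1b, with capitals marking a pair of heat shock units.
Hspa1a: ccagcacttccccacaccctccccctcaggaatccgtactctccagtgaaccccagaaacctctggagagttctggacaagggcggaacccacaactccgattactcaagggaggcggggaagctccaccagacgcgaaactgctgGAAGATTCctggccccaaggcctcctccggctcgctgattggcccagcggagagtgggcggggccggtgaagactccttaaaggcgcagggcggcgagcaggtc
Hspa1b: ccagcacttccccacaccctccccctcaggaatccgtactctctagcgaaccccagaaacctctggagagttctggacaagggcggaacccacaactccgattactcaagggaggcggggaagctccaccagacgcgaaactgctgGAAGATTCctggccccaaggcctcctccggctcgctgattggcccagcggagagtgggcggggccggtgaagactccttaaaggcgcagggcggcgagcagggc
The promoters are the same at 247 of 250 bases, and the capitals lie at -104 to -97 from the start in both. The transcripts are alike too: 47.1% of the 100-base windows of the longest GENCODE transcript of Hspa1a also occur in Hspa1b, so the authors' counting could have split shared reads between them and each gene's own value is uncertain.

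Hspa1a was at 7.82, 7.43 and 8.30 FPKM in the CD libraries and at 39.2, 46.1 and 39.6 FPKM in the SGFD libraries. Every SGFD library was far above every CD library, and SGFD replicate 2 was the highest. The mean went from 7.85 ± 0.432 to 41.6 ± 3.90 FPKM (SD, n = 3), 5.30-fold, with a log2 fold change of 2.27 ± 0.07 (SE; limma, adjusted p = 7.97e-09). It was the 14th largest rise of the 10620 genes tested.

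Hspa1b was at 15.3, 12.9 and 16.1 FPKM with CD and at 54.4, 60.3 and 53.5 FPKM with SGFD. The groups were again far apart, with SGFD replicate 2 on top. Its mean went from 14.8 ± 1.66 to 56.0 ± 3.70 FPKM, 3.79-fold, a log2 fold change of 1.86 ± 0.08 (SE; limma, adjusted p = 6.54e-08). A split of shared reads between the genes bears little on their sum, but dropping such reads or counting them for both would change it. This sum went from 22.6 ± 2.07 to 97.7 ± 7.57 FPKM, 4.31-fold. These values rest on 392 to 437 fragments of Hspa1a per CD library and 2096 to 2581 per SGFD library, and on 685 to 852 and 2840 to 3387 fragments of Hspa1b. Without SGFD replicate 2 the log2 fold changes were 2.19 and 1.80.

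Hspa8, on chromosome 9 from 40801276 to 40805202, encodes the constitutive HSC70 that does the cell's routine HSP70 work. It was among the most abundant mRNAs, at 1483, 1561 and 1486 FPKM with CD, a mean above that of 99.6% of tested genes. With SGFD it was at 1684, 1647 and 1669 FPKM. The groups did not overlap, but the gap was small: from 1510 ± 44.6 to 1667 ± 18.7 FPKM, 1.10-fold, a log2 fold change of 0.14 ± 0.04 (SE; limma, adjusted p = 0.00685). Hspa8 turned to -0.10 after quantile normalization (limma, adjusted p = 0.0289).

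Hspa8 mRNA thus outweighed the inducible pair under both diets. Hspa1a and Hspa1b made up 1.54%, 1.29% and 1.62% of the summed FPKM of Hspa1a, Hspa1b and Hspa8 in the CD libraries and 5.26%, 6.07% and 5.28% in the SGFD libraries. In FPKM, the sum of the 3 genes went from 1533 ± 42.7 to 1765 ± 12.2, a difference of 232, of which the inducible pair gave 75.0. The log2 ratio of Hspa1a to Hspa8 was -7.59 ± 0.12 (SD, n = 3) with CD and -5.33 ± 0.15 with SGFD, a difference of 2.26 ± 0.11 (SE), and that of Hspa1b to Hspa8 went up by 1.78 ± 0.14 (SE). Each ratio was higher in all 3 SGFD libraries than in any CD library, and each two-sided exact permutation p was 0.1, the smallest that 3 against 3 can give (0.12 adjusted over the 6 pairs compared).

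The ratio of Hspa1a to Hspa1b itself was not constant. Hspa1a held 33.8%, 36.5% and 34.0% of their summed FPKM with CD and 41.9%, 43.4% and 42.6% with SGFD. The log2 ratio rose by 0.48 ± 0.06 (SE), with an exact permutation p of 0.1 and no overlap between the groups. How shared reads were assigned bears directly on this ratio, and its part was not tested.

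**Figure D2:**
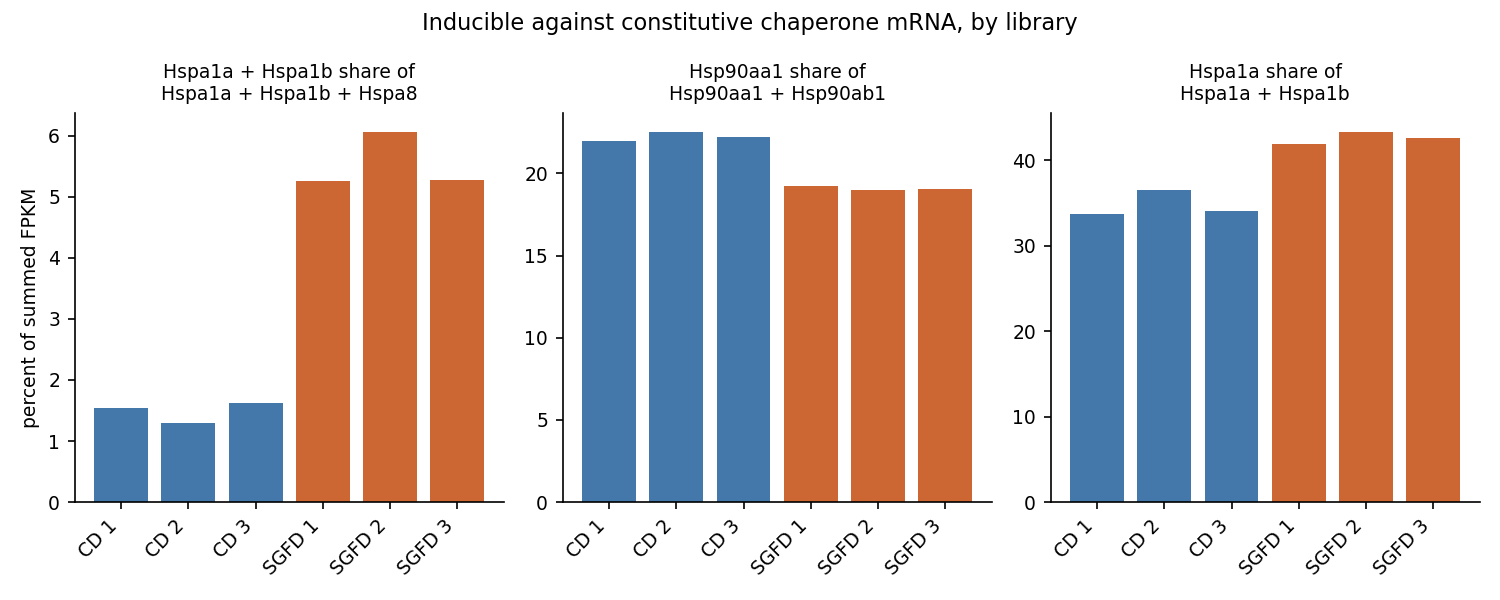
Shares of summed FPKM in percent (y axis from 0), 1 bar per library, CD in blue and SGFD in orange: the inducible genes among the cytosolic HSP70 genes, Hsp90aa1 among the HSP90 genes and Hspa1a in the inducible pair. The inducible HSP70 share goes from between 1.29% and 1.62% to between 5.26% and 6.07%, whereas the Hsp90aa1 share goes from between 22.0% and 22.5% to between 19.0% and 19.2% and that of Hspa1a is higher in every SGFD library.

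Dnajb1, on chromosome 8 from 83608175 to 83612653, encodes the stress-inducible HSP40 that works with HSP70 in pulling aggregates apart. It was at 51.9, 50.004 and 50.8 FPKM with CD and at 62.9, 61.2 and 65.1 FPKM with SGFD. All SGFD values lay above the CD values, within a narrow range in each group. Its mean went from 50.9 ± 0.944 to 63.1 ± 1.92 FPKM, 1.24-fold, a log2 fold change of 0.30 ± 0.04 (SE; limma, adjusted p = 0.000212). Against Hspa8 the log2 ratio of Dnajb1 rose by 0.17 ± 0.04 (SE), without overlap between the groups and with an exact permutation p of 0.1.

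The HSP110 genes, whose products reset HSP70 by exchanging its nucleotide, went the other way. Hsph1, on chromosome 5 from 149616843 to 149636498, is heat-inducible like Hspa1a. It was at 48.5, 49.5 and 49.6 FPKM with CD and at 30.3, 33.6 and 31.2 FPKM with SGFD. The CD values were tight and every SGFD value lay well below them. Its mean went from 49.2 ± 0.599 to 31.7 ± 1.69 FPKM, with a log2 fold change of -0.62 ± 0.05 (SE; limma, adjusted p = 6.7e-06).

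Hspa4l, on chromosome 3 from 40744500 to 40796103, was among the lower members, at 8.29, 8.72 and 8.34 FPKM with CD and at 5.52, 5.06 and 5.35 FPKM with SGFD. It is best known as an HSP110 protein of germ cells and of osmotic stress. The groups did not overlap, and the mean went from 8.45 ± 0.239 to 5.31 ± 0.231 FPKM, with a log2 fold change of -0.58 ± 0.07 (SE; limma, adjusted p = 8.74e-05). Hspa4, the other HSP110 gene of the cytosol and no member, had means of 102 ± 1.08 in CD and 100.4 ± 2.15 FPKM in SGFD libraries, without passing (limma, adjusted p = 0.604). Its call depended on the scaling: Hspa4 was higher after median-ratio scaling (0.13, adjusted p = 0.0341) and lower after quantile normalization (-0.17, adjusted p = 0.00266). Hsph1 and Hspa4l are long transcripts, and longer transcripts were lower with SGFD in general. With tested genes in 10 bins by their longest GENCODE transcript (known for 96.9%), the bins' medians went from 0.13 for the shortest to -0.38 for the longest transcripts. It was -0.21 in the bin of Hsph1, with 546 of 1029 genes lower, and -0.38 in the bin of Hspa4l, with 797 of 1029 lower. Hsph1 thus stood 0.41 and Hspa4l 0.20 below the median of its bin, and the part of length in these falls was not tested.

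The HSP90 genes separated as well. Hsp90aa1, the heat-inducible alpha form on chromosome 12 from 110691036 to 110696395, was at 551, 580 and 565 FPKM with CD and at 560, 539 and 547 FPKM with SGFD. The groups overlapped, and the change of -0.04 (95% confidence interval -0.13 to 0.04) did not pass (limma, adjusted p = 0.34). Hsp90aa1 did pass as lower after quantile normalization, at -0.32 (limma, adjusted p = 4.79e-05), and had a log2 fold change of 0.11 after median-ratio scaling.

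Hsp90ab1, the constitutive beta form on chromosome 17 from 45567778 to 45573261, was the most abundant member, at 1959, 1991 and 1980 FPKM with CD and at 2350, 2303 and 2327 FPKM with SGFD. Replicates differed little and the groups were clearly apart. Its mean went from 1977 ± 16.1 to 2327 ± 23.5 FPKM, 1.18-fold, a log2 fold change of 0.24 ± 0.03 (SE; limma, adjusted p = 0.00023), which turned to -0.08 after quantile normalization (adjusted p = 0.0478). The log2 ratio of Hsp90aa1 to Hsp90ab1 was -1.81 ± 0.02 (SD, n = 3) with CD and -2.08 ± 0.01 with SGFD. It fell by 0.28 on the log2 scale, with an SE of 0.02, lower in all 3 SGFD libraries than in any CD library (exact permutation p of 0.1), and by 0.24 after quantile normalization. In the HSP90 family, then, the inducible form lost share while in HSP70 it gained.

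**Figure D3:**
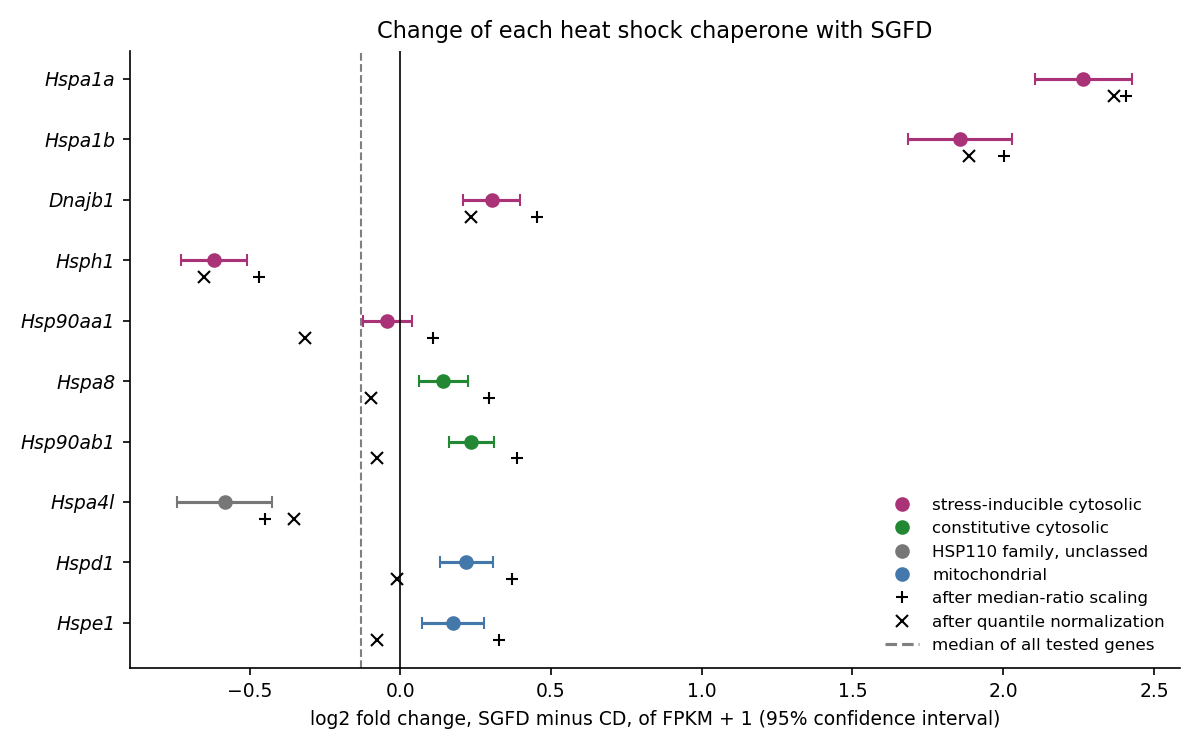
Log2 fold change of FPKM + 1 (x axis, SGFD minus CD) of each member, with its 95% confidence interval, coloured by class; plus signs and crosses give the values after median-ratio scaling and quantile normalization, and the dashed line the median of all tested genes. Hspa1a and Hspa1b stand at 2.27 and 1.86 under the deposited scale, Hsph1 and Hspa4l are below 0 under every scaling shown, and Hspa8, Hsp90ab1, Hspd1 and Hspe1 are above 0 except after quantile normalization.

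Hspd1 and Hspe1 encode the HSP60 chaperonin of the mitochondrial matrix and the HSP10 lid that closes its cage. They lie head to head on chromosome 1, Hspd1 at 55077833 to 55088243 and Hspe1 at 55088148 to 55091317, so that their annotated ends overlap by 96 bases. Between the start of Hspe1 and the inner start of Hspd1 lies a run of 4 alternating heat shock units, shown in capitals with its flanks, read on the plus strand at chr1:55088053-55088082 (RefSeq, GRCm38.p6).
Hspe1: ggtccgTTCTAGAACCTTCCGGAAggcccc
The capitals lie at -89 to -72 from the start of Hspe1 and at -144 to -127 from the inner start of Hspd1, on the other strand. They lie after the outer start of Hspd1, at 55088243, and the window of that start held no match.

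Hspd1 was at 243, 250.2 and 239 FPKM with CD and at 288, 292 and 273 FPKM with SGFD. Its mean went from 244 ± 5.71 to 284 ± 9.89 FPKM, 1.17-fold, a log2 fold change of 0.22 ± 0.04 (SE; limma, adjusted p = 0.001). Hspe1 was at 199, 195 and 214 FPKM with CD and at 236, 219.7 and 231 FPKM with SGFD. For both genes all SGFD values lay above the CD values, but for Hspe1 by a small margin between CD replicate 3 and SGFD replicate 2. The mean of Hspe1 went from 203 ± 10.1 to 229 ± 8.41 FPKM, 1.13-fold, a log2 fold change of 0.17 ± 0.05 (SE; limma, adjusted p = 0.00792). After quantile normalization neither passed, at -0.01 and -0.08. The ratio of Hspd1 to Hspe1 lay between 1.12 and 1.28 in the CD libraries and between 1.18 and 1.33 in the SGFD libraries. These ranges overlapped, and the log2 ratio differed by 0.04 ± 0.08 (SE; exact permutation p of 0.5). Hspe1 lies in the bin of the shortest transcripts, whose median was 0.13, and Hspd1 in a bin with a median of -0.03.

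Sequences of promoters were held in RefSeq's table for 7 of the 10 members, in 10 windows from 250 bases before to 50 after a start. A pair of alternating units, GAANNTTC or TTCNNGAA, each of which reads the same on both strands, was found in windows of 5 of these 7 genes: Hspa1a, Hspa1b, Hsph1, Hspd1 and Hspe1. Such a pair is held by 15.1% of all 32851 windows. Runs of 3 units that alternate with the same spacing, on either strand, were found for Hsph1, Hspd1 and Hspe1 and in 0.603% of all windows, and runs of 4 units for Hspd1 and Hspe1, in 0.0244% (8 windows). Longer runs contain the shorter ones, so the counts overlap. Only exact GAA and TTC units at this spacing were searched, so imperfect units were not counted in any window. The run of Hsph1 lies at 36 to 48 bases after the outer of its starts with a window, at chr5:149636288-149636300 on the minus strand. That start, at 149636336, lies inside the gene as annotated, which reaches 149636498. It is printed with 1 base on each side (chr5:149636287-149636301), because Hsph1 fell while other genes with such runs rose.
Hsph1: aTTCTGGAAAGTTCt
Neither Dnajb1 nor Hspa4l had a match in these windows, and that of Hspa4l belongs to a start at 40745613, inside the gene as annotated from 40744500. Genes with exact matches thus included the largest rises, small rises and a fall, and the genes without an exact match included a rise and a fall.

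**Figure D4:**
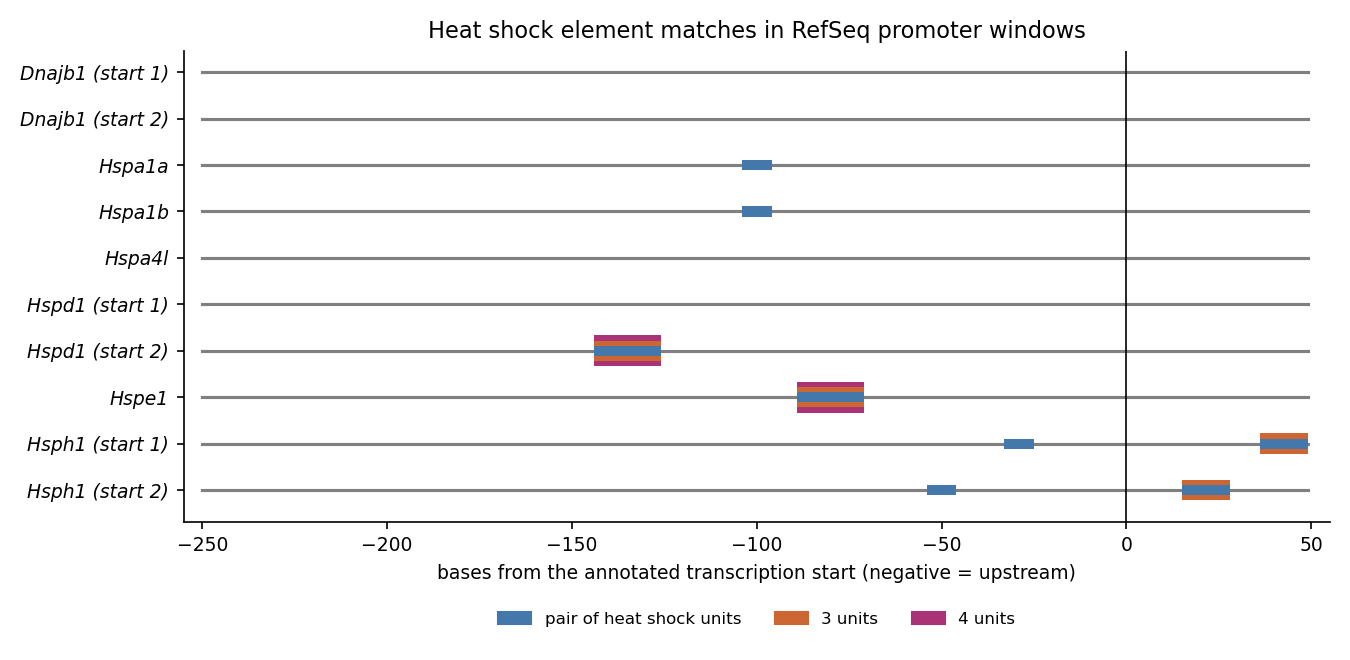
Exact matches to alternating heat shock units along the RefSeq promoter windows of 7 members (x axis, bases from the annotated start, each line 1 window). Pairs of units are drawn thinnest in blue, runs of 3 in orange and of 4 in purple; Hspa1a and Hspa1b have the same pair at the same distance, and only Hspd1 and Hspe1 have a run of 4.

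For each member the genes with the most similar profile were sought among all tested genes, as the smallest root mean square difference of centred log2(FPKM + 1) values over the 6 libraries. For Hspa1a these were Trem1, an activating receptor of myeloid cells (0.11), and the metallothionein gene Mt1 (0.14). For Hspa1b they were the Notch target Hes1 and the myeloid receptor gene Clec5a (0.08 each). Trem1 went from 0.851 to 7.86 FPKM, Hes1 from 4.94 to 19.2 FPKM and Clec5a from 0.198 to 3.00 FPKM. Clec5a passed the filter through the SGFD libraries alone, so it had to differ between the diets. Adding 1 FPKM shrinks the changes of such low genes. Trem1 and Clec5a are therefore alike to the HSP70 genes on this scale only, and not in fold of mean FPKM. Hspa8 was closest to Cdv3 and to Cct3, a subunit of the TRiC chaperonin (0.01 and 0.02), and Hsp90ab1 to Dnajc2, a ribosome-bound J-protein, and Tpm3 (0.02 each). Hspa1a and Hspa1b were not in each other's closest pair, nor were Hspd1 and Hspe1. For Dnajb1 the closest were Sod1 and Rpl12, for Hsph1 Kif17 and Fyn, for Hspa4l Abcb4 and Scd2, for Hsp90aa1 Myl12b and Ap1m1, for Hspd1 Sumo3 and Cpsf4 and for Hspe1 Trmt61a and Llph.

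Genes of the chaperone network beyond the members are given by list, to be read against the 17.7% of all tested genes that were higher and the 41.8% that were lower. Counts after median-ratio scaling are to be read against 3163 higher and 2721 lower of all 10620 tested genes. After quantile normalization 2261 of all tested genes were higher and 2552 lower. Among other HSP70 and HSP110 genes 2 of 6 tested were higher and 1 lower. Hspa9, the mitochondrial HSP70 mortalin, rose from 192 ± 3.69 to 221 ± 5.16 FPKM (limma, adjusted p = 0.00105), though after quantile normalization it did not pass, at -0.07, and Hspa13 rose from 9.57 ± 0.381 to 11.5 ± 0.592 FPKM. Hspa12b, a distant HSP70 relative known from endothelium, fell from 3.55 ± 0.490 to 1.24 ± 0.0613 FPKM. Hspa2 was at 3.68 ± 0.151 and 4.21 ± 0.608 FPKM and did not pass (limma, adjusted p = 0.201), but was higher after median-ratio scaling (0.27, adjusted p = 0.0378) and quantile normalization (0.42, adjusted p = 0.00671). The testis gene Hspa1l, a neighbour of Hspa1a, was below the filter at 0.0217 ± 0.0216 and 0.194 ± 0.0982 FPKM.

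Of 14 cytosolic J-protein genes, partners of HSP70, 3 were higher and 5 lower, shares near those of all tested genes (17.7% and 41.8%), with a median log2 fold change of -0.02. After median-ratio scaling 7 were higher and 3 lower, after quantile normalization 3 and 4, the latter near the shares of all tested genes under that scaling. Dnajc2 rose from 68.8 ± 1.501 to 82.0 ± 0.223 FPKM and Dnajb6, an aggregation-preventing J-protein, from 23.5 ± 1.27 to 26.6 ± 0.445 FPKM. Dnaja2 rose from 77.5 ± 1.03 to 84.5 ± 3.50 FPKM, a call that quantile normalization ended (adjusted p = 0.867). Dnajb2 fell from 6.02 ± 0.383 to 3.47 ± 0.478 FPKM and Dnaja4 from 2.83 ± 0.196 to 1.39 ± 0.372 FPKM. Dnajc5 fell from 33.5 ± 1.36 to 28.9 ± 0.842 FPKM, but did not pass after median-ratio scaling (adjusted p = 0.31). Among 8 nucleotide exchange factors of HSP70, Bag1 alone passed, from 116 ± 4.84 to 139.7 ± 14.0 FPKM (limma, adjusted p = 0.00634), though not after quantile normalization (adjusted p = 0.179), and Bag2, Bag5 and Bag6 did not pass. Under both other scalings Bag5 was higher, Bag6 was higher after median-ratio scaling only, and Bag2 passed under neither. After median-ratio scaling 6 of the 8 were higher. Bag3, named here after its values were seen and outside the rule for naming genes, stands for no group of genes. It was at 7.31 ± 0.620 and 7.80 ± 0.697 FPKM. It did not pass on the deposited scale (limma, adjusted p = 0.433) but was higher after median-ratio scaling (0.22, adjusted p = 0.0495) and quantile normalization (0.30, adjusted p = 0.0151).

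Of 23 HSP90 co-chaperones 4 were higher and 9 lower, again near the shares of all tested genes (17.7% and 41.8%), with a median log2 fold change of -0.06. Median-ratio scaling gave 7 higher and 4 lower, and quantile normalization 1 and 11. Nudcd2 rose from 33.7 ± 0.503 to 45.6 ± 1.38 FPKM and stayed higher under both scalings. Nudc (215 ± 3.16 to 257 ± 15.0 FPKM), Cdc37, which brings kinases to HSP90 (145 ± 0.0957 to 166 ± 7.77 FPKM), and Cacybp (72.3 ± 1.91 to 81.9 ± 0.602 FPKM) rose too, each without a call after quantile normalization. Tsc1, better known as an mTORC1 inhibitor, fell from 8.51 ± 0.411 to 4.97 ± 0.382 FPKM, and Ahsa2, an activator of HSP90 ATPase, from 14.0 ± 0.917 to 10.3 ± 0.483 FPKM, both also lower under the other scalings.

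**Figure D5:**
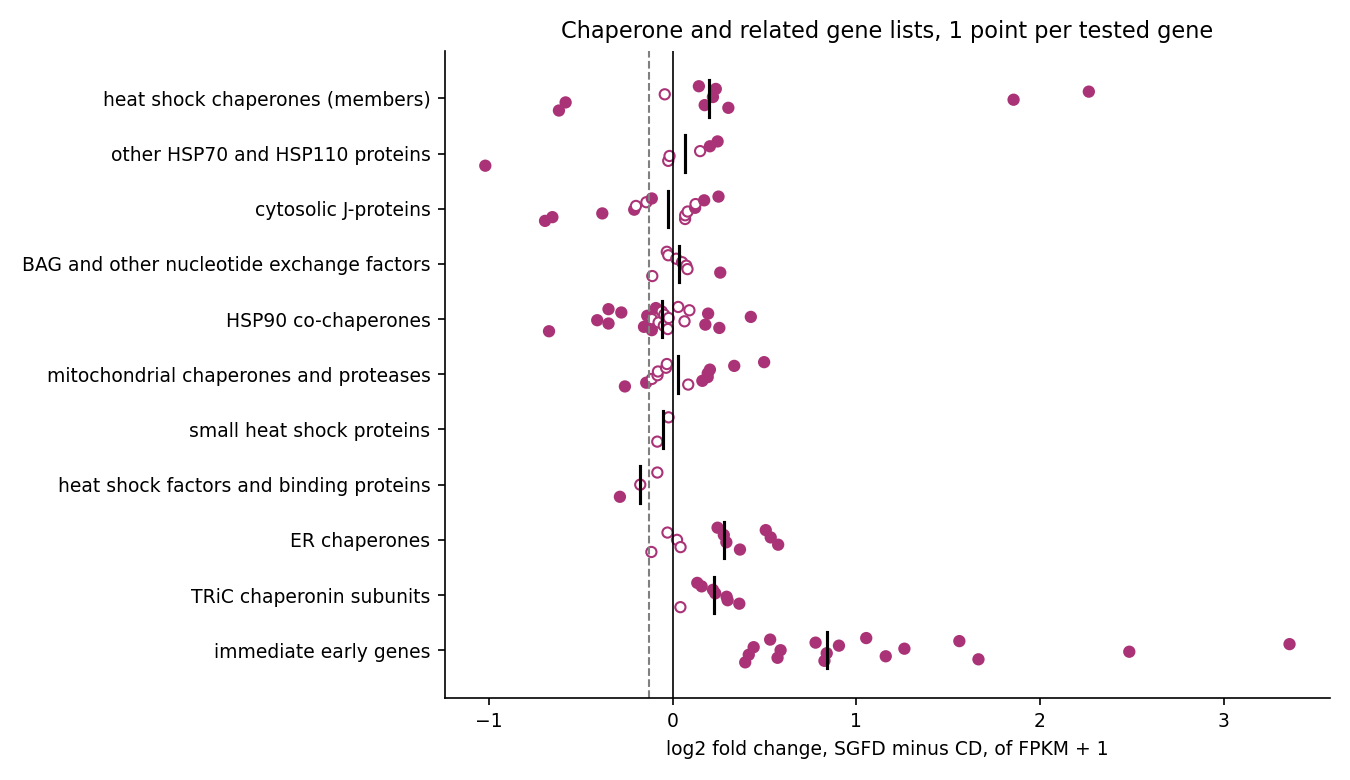
Log2 fold change of FPKM + 1 (x axis, SGFD minus CD) of each tested gene in the members and in 10 related lists, filled where the adjusted p was under 0.05, with the list's median as a black bar and the median of all tested genes dashed. Hspa1a and Hspa1b lie apart from the other chaperones, and all 17 immediate early genes are above 0.

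None of the 3 tested genes of heat shock factors and their binding proteins rose. Hsf1 went from 26.2 ± 0.481 to 21.4 ± 3.22 FPKM (limma, adjusted p = 0.0169), lower, though not after median-ratio scaling (adjusted p = 0.167), and Hsf2 was at 3.23 ± 0.364 and 2.74 ± 0.0793 FPKM without passing. Hsbp1, which binds HSF1, was at 80.8 ± 1.98 and 76.2 ± 3.34 FPKM and did not pass either, though it was lower after quantile normalization (-0.19, adjusted p = 0.00256). Small heat shock proteins were scarce: 2 of 10 genes were above the filter, Hspb6 and Hspb11, and neither passed, while the list summed to between 4.53 and 6.15 FPKM per library and Cryaa and Hspb3 were at 0 in all 6.

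In mitochondria 6 of 14 chaperone and protease genes were higher and 2 lower. Dnajc19 of the import motor rose from 6.46 ± 0.322 to 9.55 ± 0.805 FPKM, Grpel1, the exchange factor of mitochondrial HSP70, from 16.4 ± 0.976 to 21.0 ± 0.487 FPKM and the protease gene Lonp1 from 50.9 ± 0.509 to 58.2 ± 0.349 FPKM. These 3 were also higher after quantile normalization, where 4 genes were higher and none lower. Grpel2 (8.95 ± 0.807 to 7.30 ± 0.463 FPKM) and Dnaja3 (28.6 ± 0.626 to 25.8 ± 0.681 FPKM) fell, but passed under neither other scaling.

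Chaperones of other kinds are given for comparison only. Of 11 ER chaperone genes 7 were higher and none lower, with Calr going from 664 ± 8.27 to 962 ± 21.2 FPKM and the ER HSP70 gene Hspa5 from 322 ± 5.82 to 460 ± 55.2 FPKM, whereas quantile normalization gave 7 higher and 2 lower. Sdf2l1 (50.1 ± 2.32 to 75.1 ± 4.06 FPKM) and Hyou1 (47.9 ± 0.313 to 62.1 ± 0.0515 FPKM) rose too. Of 8 TRiC subunits 7 were higher and none lower, among them Tcp1 at 196 ± 7.07 to 252 ± 10.9 FPKM and Cct2 at 252 ± 0.552 to 309 ± 1.16 FPKM, but after quantile normalization 1 was higher and 3 lower. The median log2 fold changes were 0.28 and 0.23, close to the 0.20 of the 10 members, and no list was tested against another.

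Other groups of genes are given from the same libraries, where 17.7% of all tested genes were higher and 41.8% lower. Each of the 17 tested of 18 immediate early genes passed as higher, here and under both other scalings, at a median of 0.84 on the log2 scale. The list summed to 3121 to 3348 FPKM in CD and to 5405 to 6075 FPKM in SGFD libraries. Klf2 went from 45.4 ± 5.52 to 258 ± 10.2 FPKM and Atf3 from 4.12 ± 1.06 to 51.2 ± 9.08 FPKM. Markers of granulocyte-monocyte progenitors were higher in 6 of 7 cases and summed to 883 to 911 and 3459 to 3841 FPKM, monocyte markers in 8 of 9 tested (193 to 203 and 344 to 372 FPKM) and neutrophil markers in 7 of 8 tested with 1 lower (49.4 to 50.9 and 66.4 to 68.9 FPKM). Basophil and mast cell markers were higher in 4 of 5 tested (32.9 to 38.5 and 58.0 to 68.4 FPKM). LT-HSC markers were lower in 9 of 11 (377 to 379 and 221 to 230 FPKM), macrophage markers in 6 of 6 (15.3 to 16.9 and 2.81 to 3.68 FPKM), erythroid markers in 4 of 6 with 1 higher and B cell markers in 3 of 4. Megakaryocyte markers, with 2 of 5 lower and 1 higher, were near the shares of all tested genes. Some markers of these lists had to differ: 4 neutrophil and 1 monocyte marker passed the filter through the SGFD libraries alone, and 5 macrophage and 2 B cell markers through the CD libraries alone. No listed marker of these types was at 0 in every library, whereas Cd3e of T cells was. The 1 tested marker of T and NK cells, the cytotoxic granule gene Nkg7, was higher, at 104 ± 2.76 in CD and 133 ± 10.9 FPKM in SGFD libraries (limma, adjusted p = 0.000523), and also under both other scalings. In such bulk libraries a changed number of cells of a type and a changed amount of RNA per cell cannot be told apart, and the part of these groups in the chaperone changes was not tested.

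The spread between replicates was above counting error for most members, Hsph1 with CD being the exception (1.22%, where counting gives 1.56%). For Hspa1a the coefficient of variation was 5.51% with CD, where counting alone gives 4.90%, and 9.38% with SGFD, where it gives 2.10%. Hspa1b varied most, by 11.2% with CD, where counting gives 3.56%. For Hsp90ab1, with 93417 to 115427 fragments per library, it was 0.815% and 1.01%, where counting alone gives 0.326% and 0.297%. Hspa4l, with 993 to 1613 fragments, varied by 2.83% and 4.36%, against 2.52% and 3.15%. These counting values treat fragments as independent molecules, which reads without molecular identifiers are not.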

How the data were processed

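One table per library was used, with a value per gene symbol. The FPKM values were computed by the authors before they were deposited; the submitters' processing notes name StringTie, HISAT2 and fastp, and as builds mm10 and GRCm38, without saying which step used which. That the unit is FPKM was inferred from the values themselves; tool versions, annotation and strand setting are not given in the sources used here. Sorted cells went through a low-input RNA kit and a poly(A) library kit that marks strand, per the labels' protocols.

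Here, limma 3.58.1 (R 4.3.3; trended, robust empirical Bayes) was fitted to log2(FPKM + 1) of 10620 genes, those reaching 1 FPKM in 3 or more of the 6 libraries. Tests are two-sided with Benjamini-Hochberg adjustment over all tested genes and a threshold of 0.05. Fold changes on this scale understate changes of low genes, and folds named as such are ratios of mean FPKM. The fit was tested on simulated data with 200 changed genes, as many rising as falling. In these data 1875 genes were higher and 4438 lower, so that test does not bear on how calls depend on scaling. Ratios of 6 gene pairs were compared by exact permutation over libraries. Promoters and gene positions come from RefSeq (GRCm38.p6), and transcript lengths from GENCODE. The text names all members, up to 4 genes of smallest p per pathway list, genes that passed against most of their list, and the 2 closest profiles per member. The members and lists were chosen with earlier results of these data known.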

Additional observations from a re-analysis of the deposited data

How the results depend on the processing

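The 10 members were refitted under 15 alternatives: pseudocounts of 0.1 and 0.01, no filter or 5 FPKM, median-ratio scaling, quantile normalization, library weights, no variance trend, the replicate number as a block and each library left out. The call, and for called members the direction, was kept in 145 of 150 cases. Hsp90aa1, which passed in neither fit, went from -0.04 to 0.11 with median-ratio scaling. The other 5 cases came from quantile normalization: Hspa8 (-0.10), Hsp90ab1 (-0.077), Hspd1 (-0.012) and Hspe1 (-0.076) changed sign and Hsp90aa1 (-0.32) passed as lower, so that 3 members were higher and 5 lower. The cause was not tested. Over all tested genes, median-ratio scaling gave 3163 higher and 2721 lower, and quantile normalization 2552 lower. Leaving out 1 library gave between 1596 and 1922 higher and between 3588 and 4606 lower genes, and in each case 7 members higher and 2 lower. Of the pair ratios only Hspd1 to Hspe1 changed sign, ranging from -0.0097 to 0.0914 when 1 library was left out (negative without CD replicate 3 or SGFD replicate 2).

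Same-numbered libraries of the diets did not deviate together (correlations of -0.0068, -0.227 and -0.133 over 10620 genes), and no library correlated best with its own number, so the numbers are not taken as pairs. With the replicate block 1706 genes were higher and 4087 lower, and 7 members were higher and 2 lower. For each of the 6 pair ratios the exact permutation p within replicate numbers was 0.25, the smallest that 3 pairs can give, so it says nothing about stability. Counting error was highest for Hspa1a with CD (4.90%). With 3 libraries per diet an exact permutation test cannot go below 0.1.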
